A study of Homo sapiens with 9 samples.

Results

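The long arm of human chromosome 19 carries, in band 19q13.1, a run of zinc finger genes that stand side by side and derive from repeated duplication. The 36 genes described here are the protein-coding genes whose symbol is ZNF or ZFP followed by a digit and whose body starts between 34 and 40 Mb on chromosome 19 of GRCh38, out of 20037 protein-coding genes on chromosomes 1 to 22, X and Y. Gene positions, symbols and strands come from RefSeq. The measure is the percent of each gene body that lay inside listed domains of H3K9me3, the trimethylated form of histone H3 lysine 9, which marks silent heterochromatin. The rule rests on name and position alone.

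The cells were hTERT RPE-1, an established human line of retinal pigment epithelial origin made immortal with telomerase, and carried a stable transgene for mCherry (a red fluorescent protein) or for mCherry-LmnB1 (the same protein fused to lamin B1, a filament of the nuclear lamina). Both groups received doxycycline at 0.05 ug/mL for 24 hours, and each construct was represented by 2 lines, every line grown from 1 clone: LmnB1_16 and LmnB1_6 for the fusion, mCherry_3 and mCherry_4 for mCherry alone. With 2 biological replicates per line this gave 8 H3K9me3 Cut&Run libraries, each with a domain list of its own, and 1 input sample from wild-type cells. The promoter driving the transgenes is not stated in the labels, and with no RNA values the epithelial identity of the cells could not be checked against marker genes. A chi-square test of read counts over domains with the same coordinates found no difference beyond sampling noise between the mCherry_3 replicates (229 domains, 1.08 per degree of freedom, p = 0.197). The LmnB1_16 replicates had a close value (1.10, 648 domains, chi-square p = 0.038), and those of LmnB1_6 and mCherry_4 differed more (1.73 and 1.67). Only domains with matching coordinates entered, and a lack of difference cannot show that 2 libraries are the same. The labels call the mCherry_3 pair biological replicates, and ZNF566 was covered over 38.0% in replicate 1 and 87.5% in replicate 2. The mCherry_3 pair may still be 1 sample. Means of lines therefore count it once. The test per gene was run with its 2 libraries apart and again with them as 1 sample. In a population of cells, a smaller share of marked cells and less of the mark per cell cannot be told apart. Values are given per library and as means of lines, and a mean over a construct weights its 2 lines equally.

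Most genes of this family code for KRAB zinc finger proteins. Such a protein binds DNA, often within transposons, through an array of C2H2 zinc fingers, and its KRAB domain recruits the corepressor TRIM28, which brings the methyltransferase SETDB1 and so leads to H3K9me3 at the bound site. The genes are targets of the mark themselves: H3K9me3 is known to lie over the long last exon that codes for the finger array, where ZNF274 can recruit the same machinery. The symbol rule also admitted ZFP36, which is of another kind: it codes for tristetraprolin, an RNA-binding protein with CCCH fingers that destabilises messenger RNAs of inflammation.

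The domains did not lie evenly along these genes, and many of the starts were outside them while the ends were inside. The sequences below show what the starts look like on either side of that difference. Each is a RefSeq promoter window of the gene named (GRCh38.p14, chromosome 19, 250 bases before to 50 bases after an annotated start, printed 5′ to 3′ on the strand of the gene), with each CG dinucleotide in capitals. ZNF829 has 2 such windows, of which 1 is printed. The windows of ZFP82 (chr19:36418595-36418894, minus strand) and ZNF829 (chr19:36916242-36916541, minus strand) were inside a domain in all 8 libraries. Those of ZNF527 (chr19:37370849-37371148, plus strand) and ZNF546 (chr19:39996810-39997109, plus strand) were inside a domain in 0 of 8, although the last 5 kb of both genes was covered entirely in every library.
ZFP82: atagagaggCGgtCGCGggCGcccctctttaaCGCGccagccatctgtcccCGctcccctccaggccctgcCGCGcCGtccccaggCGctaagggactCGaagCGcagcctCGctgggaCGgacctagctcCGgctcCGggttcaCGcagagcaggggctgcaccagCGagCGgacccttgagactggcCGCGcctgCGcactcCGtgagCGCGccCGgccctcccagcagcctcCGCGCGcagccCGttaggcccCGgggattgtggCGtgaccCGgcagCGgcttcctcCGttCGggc
ZNF829: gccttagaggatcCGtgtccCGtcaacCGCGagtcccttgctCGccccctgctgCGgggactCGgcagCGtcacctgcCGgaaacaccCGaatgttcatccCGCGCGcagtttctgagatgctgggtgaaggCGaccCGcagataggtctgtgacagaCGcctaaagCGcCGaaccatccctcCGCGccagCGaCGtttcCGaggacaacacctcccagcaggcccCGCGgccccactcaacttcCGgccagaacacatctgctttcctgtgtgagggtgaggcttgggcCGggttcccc
ZNF527: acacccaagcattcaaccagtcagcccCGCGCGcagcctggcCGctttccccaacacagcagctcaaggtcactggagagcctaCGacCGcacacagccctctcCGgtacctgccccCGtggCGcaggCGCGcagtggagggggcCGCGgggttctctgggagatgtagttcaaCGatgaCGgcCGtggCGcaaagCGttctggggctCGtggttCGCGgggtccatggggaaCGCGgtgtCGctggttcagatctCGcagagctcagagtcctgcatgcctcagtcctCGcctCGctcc
ZNF546: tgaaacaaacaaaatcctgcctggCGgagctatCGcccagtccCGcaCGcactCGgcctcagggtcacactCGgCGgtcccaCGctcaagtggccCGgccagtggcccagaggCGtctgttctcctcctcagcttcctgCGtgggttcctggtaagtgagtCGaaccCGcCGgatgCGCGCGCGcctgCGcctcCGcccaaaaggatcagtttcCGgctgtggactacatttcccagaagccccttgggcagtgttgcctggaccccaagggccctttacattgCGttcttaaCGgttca
The 4 windows hold 37, 27, 27 and 23 CG dinucleotides in the order printed, so a start rich in CG was found both inside and outside the domains. A promoter window was matched for 33 of the 36 genes, and 1 window was used per gene where the RefSeq table gives several. These windows held a median of 23 CG (range 12 to 37), against a median of 14 over all 35116 windows of that table. The full table can hold more than 1 window per gene, so the 2 sets are not chosen alike. The letters TATAAA, searched on both strands, were in 0 of the 33 windows and in 11.5% of all windows. The letters CCAAT, also searched on both strands, were in 8 of the 33 (24.2%), against 34.6% of all windows.

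H3K9me3 covered most of the bodies of these genes in these cells. The mean covered percent over the 36 genes was 79.1 and 74.1 (LmnB1_16), 63.1 and 54.8 (LmnB1_6), 68.0 and 69.9 (mCherry_3) and 62.6 and 42.9 (mCherry_4) (replicates 1 and 2 in that order, as in every list of library values here). Over all protein-coding genes the library means were between 3.01 and 7.18. In all 8 libraries 12 of the 36 genes (33.3%) were covered over at least 50% of their length, against 364 of 20037 genes (1.82%). Coverage above 0 in every library was found for 20 of the 36, and 1 gene, ZFP36, was at 0 in every library, as were 15897 of all genes (79.3%).

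**Figure D1:**
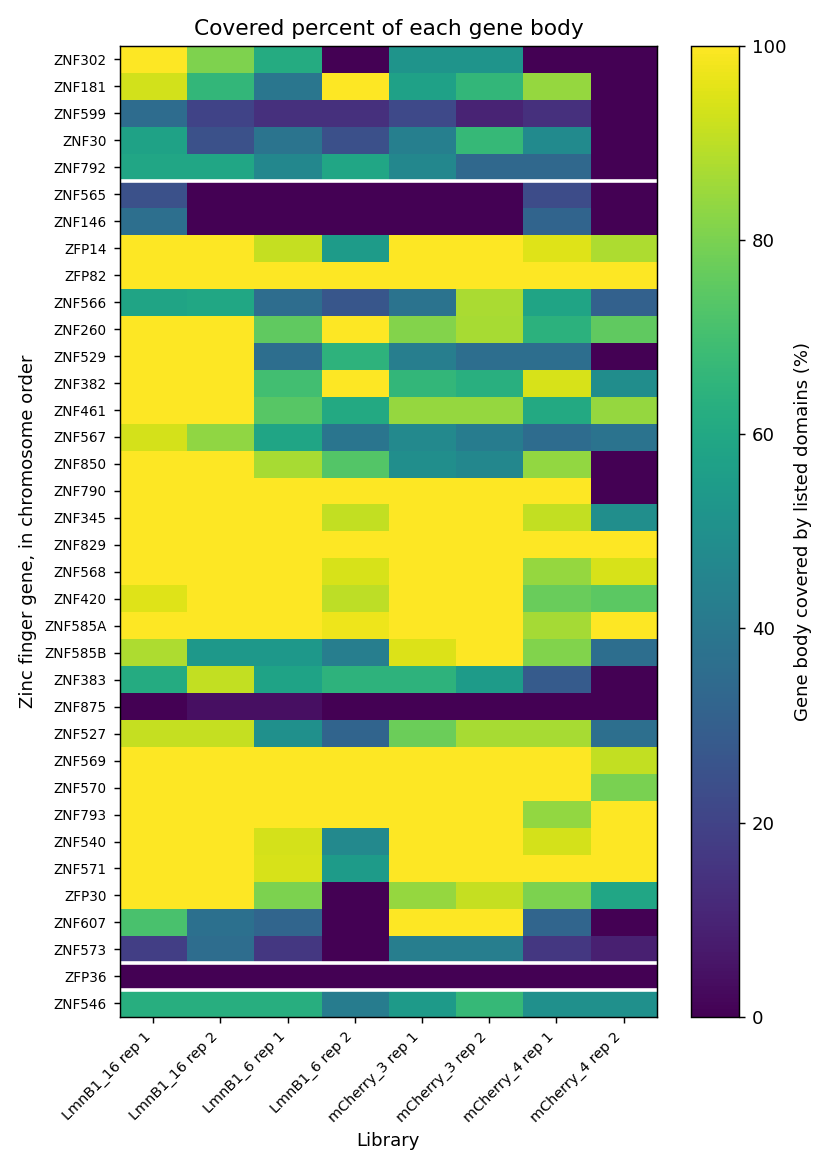
Percent of each gene body covered by listed H3K9me3 domains (colour, 0 to 100) for the 36 zinc finger genes in chromosome order (vertical axis) and the 8 libraries (horizontal axis); white lines part genes over 500 kb apart. ZFP82 and ZNF829 are at 100 in all 8 libraries, ZFP36 at 0 in all 8, and mCherry_4 replicate 2 has 14 genes at 0.

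The genes fall into a small proximal run, a large central run, and ZFP36 and ZNF546 standing alone, when runs are parted at gaps over 500 kb. The central run holds 29 genes from ZNF565 to ZNF573 (chr19:36182060-37779586, 1598 kb). Domains covered 81.1% and 80.7% of it (LmnB1_16), 69.5% and 59.7% (LmnB1_6), 73.6% and 75.1% (mCherry_3) and 66.9% and 50.6% (mCherry_4). A total of 656 kb (41.1% of the run) was inside a domain in all 8 libraries, in 19 separate segments, and 207.5 kb was in a domain of none, in 8 segments. The longest shared segment, 86 kb at chr19:36966001-37052000, takes in the 3′ part of ZNF568 and the 5′ part of ZNF420. ZNF568 is the human counterpart of a mouse gene that represses a placental transcript of Igf2, and ZNF420 codes for APAK, a KRAB protein known as a negative regulator of p53. Within the run, the longest stretch with no domain in any library, 58 kb at chr19:37315001-37373000, lies over ZNF875 and the start of ZNF527. The next longest, 47.9 kb at chr19:36182060-36230000, lies over ZNF565 and the start of ZNF146. It begins at the edge of the run, so its full length was not measured.

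**Figure D2:**
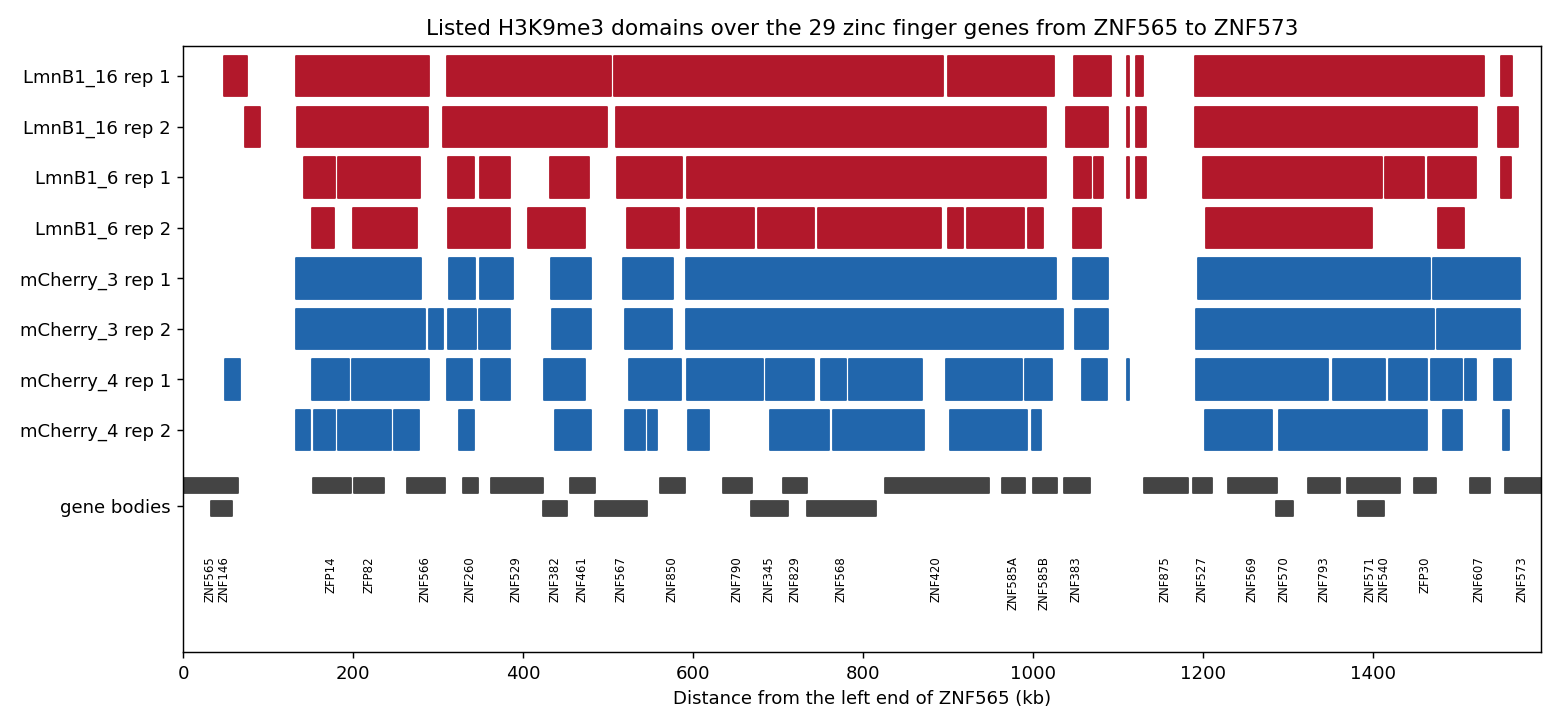
Listed H3K9me3 domains (bars, 1 line per library, red for LmnB1 and blue for mCherry) and gene bodies (grey) against the distance in kb from the left end of ZNF565. Domains are broad in every library, the gap around ZNF875 recurs in all 8, and ZNF529 and ZNF850 lie wholly inside domains in both LmnB1_16 libraries and in no other.

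Single domains spanned many genes. The longest domain over these genes measured 387 and 506 kb (LmnB1_16), 422 and 195 kb (LmnB1_6), 435 and 443 kb (mCherry_3) and 155 and 174 kb (mCherry_4). Neighbouring genes were then covered by 1 domain, so their values are not independent of each other. Of the genes, 6 pairs also share bases: ZNF571 lies wholly within ZNF540 (30533 bases) and ZNF146 wholly within ZNF565 (24046 bases), and the others overlap by 231 to 5095 bases. In 4 pairs the starts are within 1 kb of each other on opposite strands, with 41 bases between those of ZNF829 and ZNF568 and 97 bases between those of ZNF461 and ZNF567. ZNF585A and ZNF585B are close copies, and reads that map to both cannot be assigned with certainty.

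Several genes of the central run were covered over most or all of their length in every line. ZFP82 and ZNF829 were at 100% in all 8 libraries. ZNF569 and ZNF570, which share 1494 bases around their starts, were at 100% in 7 libraries, with 90.9% and 79.7% in mCherry_4 replicate 2. ZNF793 was at 100% in 7 libraries and at 83.7% in mCherry_4 replicate 1. ZNF585A was at 100% in 6, with 97.4% in LmnB1_6 replicate 2 and 86.4% in mCherry_4 replicate 1. For these genes the values of the 2 constructs overlap at the upper limit of the scale, where no increase could be measured. ZNF540 had 100, 100, 93.6 and 47.2% in the LmnB1 libraries and 100, 100, 93.6 and 100% in the mCherry libraries. ZNF571, inside it, had 100, 100, 94.1 and 54.8% against 100% in all 4 mCherry libraries. The low value of both is that of LmnB1_6 replicate 2, and both LmnB1_16 libraries are at 100% for both genes.

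ZNF790 was covered entirely in 7 libraries and was at 0 in mCherry_4 replicate 2, where ZNF850 and ZNF529 were also at 0. Of the 36 genes, 14 were at 0 in that library and 8 were at 0 in it alone. Listed domains covered the least of the genome there, 320 Mb, followed by 357 Mb in LmnB1_6 replicate 2, against 429 to 646 Mb in the other 6 libraries. These 2 libraries held the lowest value, alone or tied, of 25 of the 36 genes. Without both of them, 20 genes were covered over at least 50% in every library in place of 12, a count that cannot fall when libraries are left out. With all lists at equal covered length this count was 11. Whether list length is the cause of the low values was not tested.

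The stretch from ZNF260 to ZNF850 differed widely between lines. ZNF529 was at 100 and 100% in LmnB1_16 and 36.1 and 64.5% in LmnB1_6, against 42.6 and 36.1% in mCherry_3 and 36.1 and 0% in mCherry_4. ZNF850 was at 100, 100, 87.0 and 73.4% in the LmnB1 libraries and 49.5, 46.1, 83.6 and 0% in the mCherry libraries. ZNF567 was at 93.4, 83.5, 58.6 and 38.8% against 47.1, 42.1, 35.5 and 38.0%. In each of these 3 genes LmnB1_16 was above every mCherry library, and at least 1 library of LmnB1_6 was within the range of mCherry. ZNF382, a KRAB repressor that shares its start region with ZNF529, was at 100, 100, 69.8 and 100% against 66.4, 62.9, 94.1 and 49.0%. ZNF461 (GIOT1, first described as inducible by gonadotropin) was at 100% in both LmnB1_16 libraries, at 74.1 and 60.8% in LmnB1_6, and between 60.8 and 84.0% in the mCherry libraries. ZNF260, which codes for a protein of zinc fingers with no KRAB domain, was at 100, 100, 75.7 and 100% against 81.4, 87.1, 64.3 and 75.7%. The promoter windows of ZNF461, ZNF567 and ZNF850 were inside a domain in the 2 LmnB1_16 libraries alone. Those of ZNF260, ZNF382 and ZNF529 were inside a domain in these 2 and LmnB1_6 replicate 2. All of these windows lie at or near the edge of the gene body, so they repeat the body values. The windows of ZNF461 and ZNF567 also overlap each other, as do those of ZNF382 and ZNF529.

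The distal end of the central run had another pattern. ZNF607 was at 71.1 and 36.9% (LmnB1_16), 32.6 and 0% (LmnB1_6), 100 and 100% (mCherry_3) and 32.6 and 0% (mCherry_4). ZNF573 was at 18.6, 35.6, 16.2 and 0% in the LmnB1 libraries, against 42.9, 42.9, 16.2 and 8.96% in the mCherry libraries. ZFP30 was at 100, 100, 80.2 and 0% against 84.2, 91.0, 80.2 and 59.4%. ZNF607 and ZNF573 were thus highest in mCherry_3, and mCherry_4 was within the range of LmnB1 in all 3 genes. ZNF585B, further towards the centre, was at 87.8, 53.3, 53.3 and 42.9% against 94.7, 100, 80.9 and 35.99%.

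At the proximal edge of the central run, ZNF565 and ZNF146 carried no domain in 6 of 8 libraries. ZNF146 codes for a short protein made almost wholly of zinc fingers. It was covered over 36.5% in LmnB1_16 replicate 1 and 32.3% in mCherry_4 replicate 1, and ZNF565, which contains it, over 24.9% and 23.4% in the same libraries. ZNF875, once named HKR1, was covered over 4.19% in LmnB1_16 replicate 2 and LmnB1_6 replicate 1 and was at 0 in the other 6. These low values stand beside high ones within the same run: ZNF527, the next gene after ZNF875, was at 91.3, 91.3, 50.4 and 32.2% in the LmnB1 libraries and 77.7, 86.8, 86.8 and 36.7% in the mCherry libraries.

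The proximal run holds 5 genes, ZNF302 to ZNF792 (chr19:34675979-34964229, 288 kb), and was less covered. No base of it was in a domain in all 8 libraries, because mCherry_4 replicate 2 had no domain there at all. Across the other 7 libraries 18.0% to 34.4% of the run was covered. ZNF302 was at 100, 80.6, 61.4 and 0% in the LmnB1 libraries and 51.8, 51.8, 0 and 0% in the mCherry libraries. ZNF181 was at 93.2, 66.3, 39.3 and 100% against 57.3, 66.3, 84.2 and 0%. The replicates of a line differed here by up to 84.2 points, which is more than the constructs differed. ZNF792 was at 59.0, 59.0, 46.3 and 59.0% against 46.3, 33.6, 33.6 and 0%, with mCherry_3 replicate 1 equal to the lowest LmnB1 value. ZNF599, the longest gene of the run, did not exceed 35.4% in any library.

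ZNF546 stands at the upper limit of the rule (chr19:39997060-40021038). It had 62.7, 62.7, 62.7 and 41.9% covered with LmnB1 and 54.4, 66.9, 50.2 and 50.2% with mCherry alone. Its domain, which runs on past its end, had the highest log2 enrichment of all domains over these genes in LmnB1_16 replicate 1 (2.02) and in mCherry_3 replicate 1 (1.14), and ranks between 3 and 10 in the other 6 libraries. Log2 enrichment is the value in the deposited lists that sets a domain's H3K9me3 reads against its input reads. Just beyond the limit of 40 Mb, ZNF780B had a mean of 84.9% over 8 libraries and ZNF780A 19.8%, and ZNF546, just inside, had 56.5%.

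Coverage was higher at the 3′ end of these genes than at the 5′ end. Of the 36 genes, 31 have a strand in the table used and a body of at least 10 kb. In them the last 5 kb was covered by 85.1% and the 5 kb centred on the start by 47.0% (means of 8 libraries), a difference of −38.1 points for start minus end. By library this difference ranged from −48.2 in mCherry_4 replicate 1 to −23.9 in LmnB1_16 replicate 1, and the end was higher in 8 of 8 libraries. The end exceeded the start in 22 genes, equalled it in 6 and was below it in 3: ZNF540, ZNF565 and ZNF875. In ZNF546 the start window was covered by 1.10% and the end by 100%. ZNF527 had 2.99% and 100%, ZNF566 12.8% and 100%, and ZNF585B 14.9% and 100%. In these 4 genes every library had its domain over the end. ZNF568, ZNF420, ZNF793, ZFP82 and ZNF829 had 100% at both windows. Of the promoter windows of 33 genes, 1 per gene, 5 were inside a domain in all 8 libraries (ZFP82, ZNF568, ZNF829, ZNF793 and ZNF540) and 8 in none. The windows of ZNF568 and ZNF829 overlap, so these 5 are not all separate places. The 33 windows follow the promoter table, whose start lies over 1 kb from the start of the gene body in 4 genes (ZNF302, ZNF599, ZNF420 and ZNF569). For ZNF420 it lies 70320 bases inside the body, and that window was in a domain in 4 libraries, whereas the start of the body was covered in all 8.

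**Figure D3:**
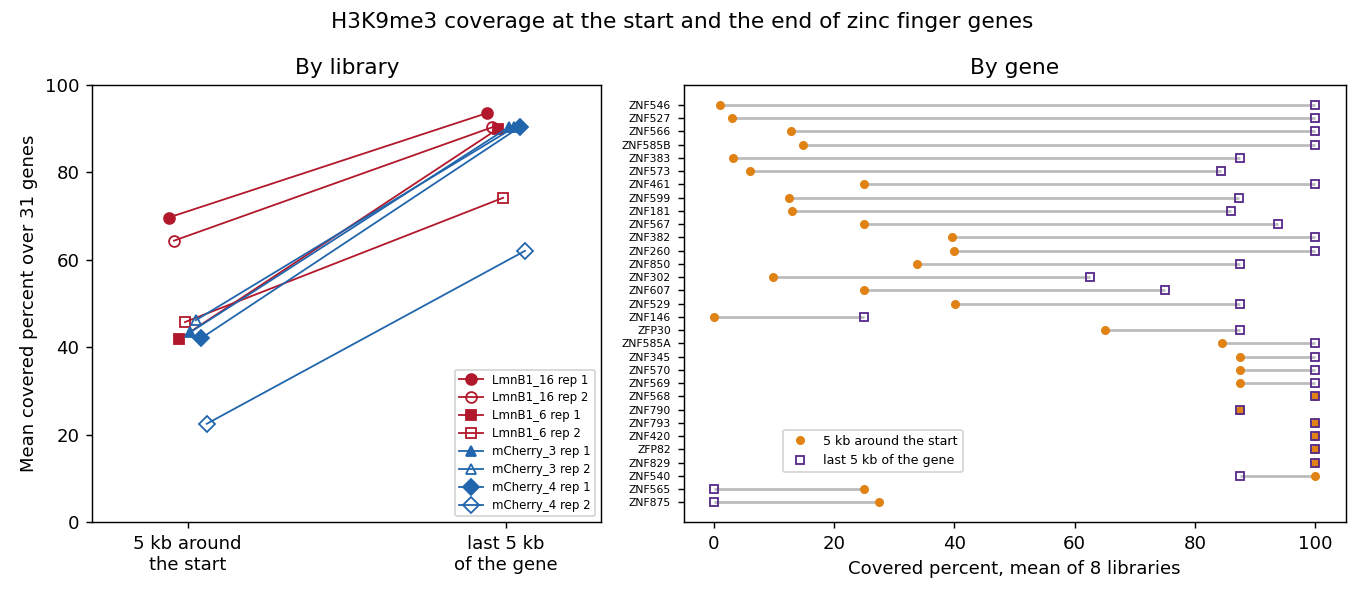
Percent covered by listed domains in the 5 kb around the start and the last 5 kb of 31 zinc finger genes: left, the mean over genes for each library (filled symbols replicate 1, open symbols replicate 2, red LmnB1, blue mCherry); right, each gene's mean of 8 libraries at its start (orange) and end (purple). All 8 lines rise from start to end, and start values lie between 22.5 and 69.7.

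The start windows separated LmnB1_16 from the rest: 69.7% and 64.4% of them was covered there, against 41.9% and 45.8% (LmnB1_6), 43.5% and 46.2% (mCherry_3) and 42.1% and 22.5% (mCherry_4). The end windows were between 89.9% and 93.5% in 6 libraries, with 74.2% in LmnB1_6 replicate 2 and 62.1% in mCherry_4 replicate 2. Among zinc finger genes elsewhere on chromosome 19, the means at start and end were 38.0% and 81.2% in 19p13.2 (32 genes), 53.6% and 76.0% in 19p12 (29 genes), 45.3% and 67.0% in 19q13.3 with proximal 19q13.4 (47 genes), and 36.8% and 51.9% at the end of 19q (38 genes). Over the 2830 protein-coding genes of that length with any covered base they were 16.1% and 20.8%. The higher end was thus seen in all 5 zinc finger groups of the chromosome, and no test of a difference between the groups was made.

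The construct comparison asked whether the mCherry-LmnB1 transgene, against mCherry alone, went with a change in H3K9me3 at these genes. The amount of lamin B1 is not in the data used here. Over the 36 genes the mean was 67.8% for LmnB1 and 60.9% for mCherry, a difference of 6.91 points. It was 1.99 points without mCherry_4 replicate 2, 11.8 without mCherry_4 replicate 1, 4.08 without the 2 libraries with the least covered length, and 0.21 after each library's mean over the tested genes was subtracted. With the lists at equal covered length it was 7.04 points, and with the highest-scoring 50% of each list 8.55. The line means were 76.6 (LmnB1_16) and 59.0 (LmnB1_6), against 69.0 (mCherry_3) and 52.8 (mCherry_4), so the lines of the constructs overlapped, and lines of 1 construct differed by more than the constructs did. Per gene, limma was fitted across all 2304 genes with a mean of at least 5% covered, with line as a block and Benjamini-Hochberg adjustment, and 34 of the 36 genes were among them (ZNF875 and ZFP36 were not). Of these 34, 0 passed an adjusted p of 0.05 in either direction and 0 had an unadjusted p under 0.05. Over all genes tested, 0.217% passed as higher in LmnB1 and 0.0868% as lower, so a count of 0 of 34 is near the share over all genes. With the mCherry_3 replicates counted as 1 sample in the fit, 0 of the 34 passed as well. Leaving out 1 library at a time gave 8 to 60 genes passed in all in place of 7 (60 without LmnB1_6 replicate 2, 15 without mCherry_4 replicate 2, 11 without either mCherry_3 replicate), with 0 of the 36 among them each time. The LmnB1 mean was higher in 22 of the 34, lower in 10 and equal in 2, with a median difference of 3.37 points, against 3.73 over all genes tested. No gene of the 34 had its 4 LmnB1 values all above or all below its 4 mCherry values, which 2.69% and 0.391% of all genes tested had. That count depended on single libraries, and so did the share over all genes. With LmnB1 above, it was 4 without LmnB1_6 replicate 1 (ZNF792, ZNF260, ZNF529 and ZNF382), or 11.8% of the 34, against 3.15% of all genes tested. It was 3 without LmnB1_6 replicate 2 (ZNF302, ZNF567 and ZNF850), or 8.82% against 9.54%. It was 2 without mCherry_3 replicate 1 (ZNF792 and ZNF383), or 5.88% against 4.12%, and 2 of 33 without mCherry_4 replicate 1 (ZNF382 and ZNF850), or 6.06% against 3.23%.

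**Figure D4:**
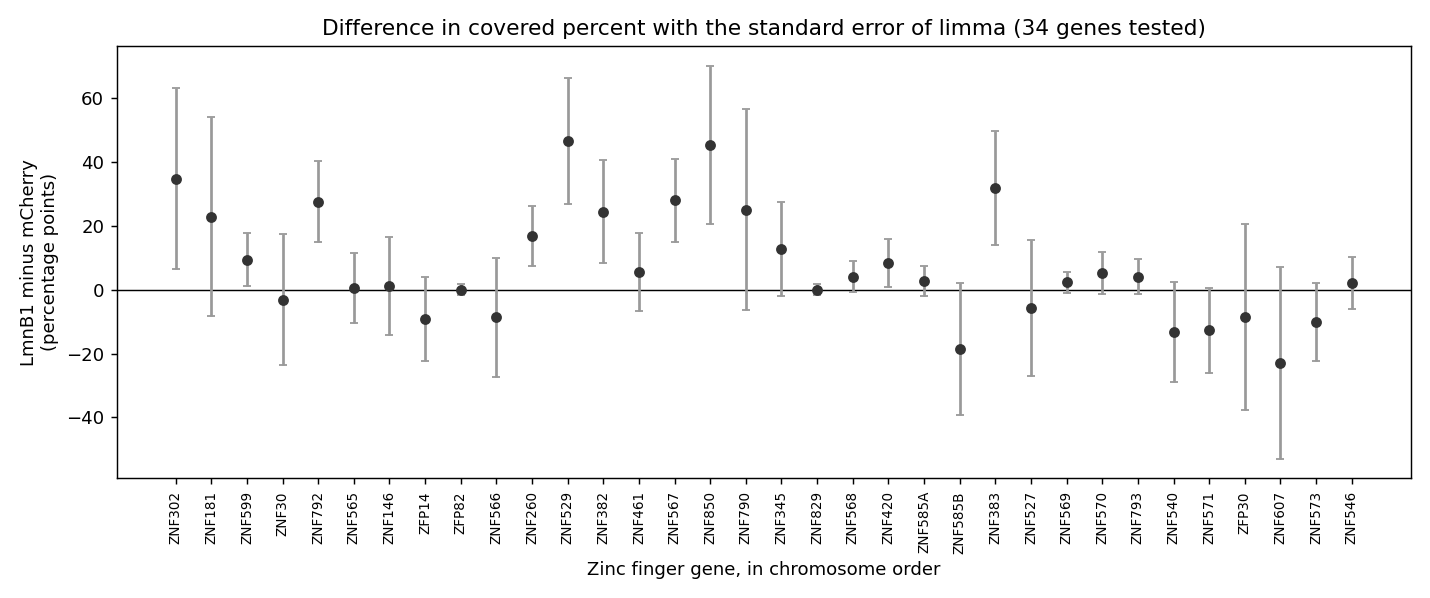
LmnB1 minus mCherry in covered percent (points) for the 34 genes tested, in chromosome order, with the standard error from limma. The largest positive differences are those of ZNF529 and ZNF850, the largest negative that of ZNF607, and none passed the adjusted threshold.

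The largest differences were 46.4 points for ZNF529 (SE 19.8, limma adjusted p = 0.907), 45.3 for ZNF850 (SE 24.7, limma adjusted p = 0.907) and 34.6 for ZNF302 (SE 28.3, limma adjusted p = 0.911). With the lists at equal covered length ZNF529 and ZNF850 kept these differences, and that of ZNF302 was 2.4 points. ZNF383 followed with 31.7 points and ZNF567 with 27.9. On the other side ZNF607 differed by −23.0 points (SE 29.9, limma adjusted p = 0.913), ZNF585B by −18.6, ZNF540 by −13.2 and ZNF571 by −12.8. ZFP82 and ZNF829 differed by 0, and their error is one that limma takes from other genes, since their values did not vary. At equal covered length ZNF829 still differed by 0, and ZFP82 by −25.0 points. The adjusted p of every tested gene of the list was at least 0.907. Standard errors of 20 points and more leave room for large differences either way in such genes. The H3K9me3 reads per input read that the lists imply were 0.880 to 1.01 in the LmnB1 libraries and 0.421 to 0.859 in the mCherry libraries, so depth and construct cannot be told apart here.

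Domains over these genes were also somewhat stronger than the average domain of the same list. Pooled over the domains that touch the genes, log2 enrichment was 1.42 and 1.15 (LmnB1_16), 1.08 and 0.79 (LmnB1_6), 1.00 and 1.01 (mCherry_3) and 0.95 and 0.77 (mCherry_4). Over all domains it was 1.14, 0.95, 0.93, 0.71, 0.89, 0.88, 0.86 and 0.72 in the same order. The genes' domains were higher in 8 of 8 libraries, by 0.137 on average, with the widest margin in LmnB1_16 replicate 1 (0.28) and the narrowest in mCherry_4 replicate 2 (0.05). These values rest on between 8119 H3K9me3 reads in 23 domains (mCherry_4 replicate 1) and 28883 in 14 domains (LmnB1_16 replicate 1). The margin was 0.0758 with the lists set to equal covered length and 0.0552 with the highest-scoring 50% of each list.

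Outside the runs of zinc finger genes little was covered, and within the central run the bases between the genes were covered nearly as much as the genes. In that run domains covered 71.5% of the bases of the zinc finger genes and 64.3% of the bases between genes (means of 8 libraries). From ZNF302 to ZNF546 the chromosome measures 5345 kb, and domains covered 24.7% of it. Over this whole stretch, most of which lies between the runs, they covered 67.9% of the bases of the zinc finger genes, 20.8% of the bases between genes and 1.11% of the bases of other protein-coding genes. Among the 128 other genes that start between 34 and 40 Mb, 117 were at 0 in all 8 libraries. The 1 of them with at least 50% in every library, LOC124904708, had a mean of 98.5%. It lies within the central run, overlaps ZNF793 and so shares covered bases with it, and ends just before ZNF540. WDR87, just past ZNF573, had a mean of 22.7%, with 4 of 8 libraries at 0.

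Against the other zinc finger groups of chromosome 19 these genes were in the middle. The mean over 8 libraries was 64.3% here, 68.8% in 19p13.2 (39 genes), 71.0% in 19p12 (37 genes), 55.5% in 19q13.3 with proximal 19q13.4 (60 genes) and 48.8% at the end of 19q (54 genes). LmnB1 minus mCherry was 6.91 points here and between 6.75 and 8.43 points in those 4 groups. A difference between the groups was not tested.

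**Figure D5:**
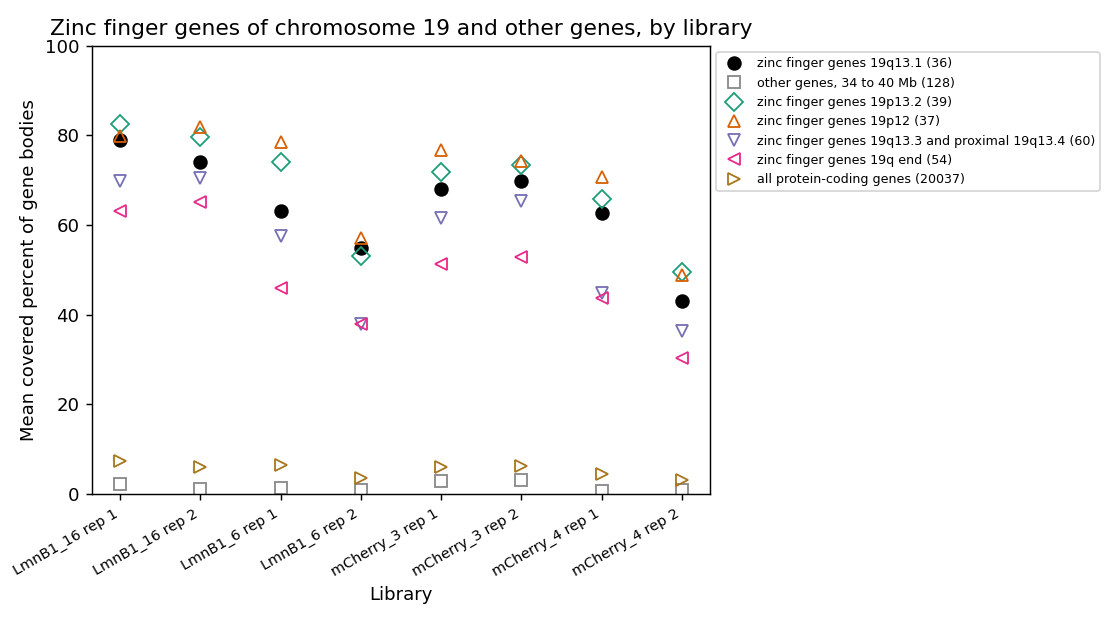
Mean covered percent of gene bodies (vertical axis) in each library (horizontal axis) for the 36 zinc finger genes of 19q13.1 (filled), 4 other zinc finger groups of chromosome 19, the 128 other genes of the same interval and all protein-coding genes; numbers of genes are in the legend. All 5 zinc finger groups are lowest in mCherry_4 replicate 2, and the 128 neighbours stay under 3.12 in every library.

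Of 18 genes for the machinery that writes and reads the mark, among them TRIM28, SUV39H1 and CBX5 (HP1 alpha), 14 (77.8%) were at 0 in every library, close to the 79.3% of all genes. Their mean was 6.87%, against 5.30% over all genes, and most of it came from the single gene ZNF274. ZNF274, itself a zinc finger gene at the end of 19q, was at 100% in 6 libraries and at 93.6% and 87.1% in the 2 of mCherry_4. ATF7IP2, a relative of the SETDB1 partner ATF7IP, was at 22.5, 25.6, 82.9 and 57.3% in the LmnB1 libraries and at 0 in all 4 mCherry libraries (difference 47.1 points, SE 14.6, limma adjusted p = 0.907). SETDB1 itself was covered over 7.80% in LmnB1_16 replicate 1 and at 0 in the other 7. Of 8 genes listed for the nuclear lamina (lamins, proteins of the inner nuclear membrane and BANF1), 7 (87.5%) were at 0 in every library, LMNB1 among them. The genes whose profile over the 8 libraries was nearest to the mean profile of the 36 were ANKS1B (root mean square distance 4.82 points), TAFA2 (7.61) and ZNF189 (7.85), none of them on chromosome 19.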

How the data were processed

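H3K9me3 was profiled by Cut&Run in 8 libraries with antibody ab8898, per the labels' protocols. Each library has a deposited list of domains with its coordinates on GRCh38. Tools named in the submitters' processing notes, with no role stated, are deepTools, DESeq2, SICER and DiffBind 3.0.15, and the build is named there as hg38 or GRCh38. An aligner was not given in the sources used here. The authors deposited, with every domain, a read count for H3K9me3 and another for input, a p-value and an adjusted p-value, a log2 enrichment, and a score that equals 100 times that log2 value. Domains were listed per library, start on steps of 1000 bp and have a log2 enrichment above 0.6, so a gene outside the list may lie just under that limit. The authors' log2 and score values were used only to describe or filter domains within a list. Library totals are not in the files; the read ratio used as depth is the constant between the deposited log2 values and the log2 ratio of the deposited counts.

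The percent of each RefSeq gene body inside listed domains was computed for 20037 protein-coding genes (Python 3.11.15, pandas 2.3.3). Constructs were compared with limma 3.58.1 in R 4.3.3 on these percentages, with the line as a random block (estimated correlation 0.366), for genes with a mean of at least 5%, and p-values were adjusted by Benjamini-Hochberg over all 2304 tested. The fit holds the mCherry_3 replicates as separate libraries, and an alternative counts them as 1 sample. With 4 libraries from 2 lines per construct, p-values measure the spread between these lines and libraries. Fits and coverage were tested on simulated data. No outcome of that check is given here, and no value in the text rests on it. Alternatives changed the filter, the block, the scaling, the domains kept and the gene body limits, and left out libraries; those without the 2 shortest lists, with the mCherry_3 pair as 1 sample and with other start and end windows were chosen after seeing the data. Promoter windows come from the RefSeq table of GRCh38.p14, 1 per gene where several are given, without ZNF30, ZFP14 and ZNF571. The rule for genes named with values took the 6 with the highest mean, the 5 largest differences in each direction, the 4 with the largest gap between replicates of a line, the first and last by position, and genes at 0 throughout; the other genes of the runs named with values were chosen after their values were seen. The members and gene lists were chosen with earlier results of these data known.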

Additional observations from a re-analysis of the deposited data

Results flagged for a closer look

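Each gene was looked at in the 4 libraries of a construct for a library that stood far from the other 3, by Dixon's gap over range. This gave 72 groups of values for the 36 genes, of which 60 showed any spread, and 21 libraries stood apart; chance alone marks about 1 in 20 groups. Of 8 further groups, for 4 summaries over the genes (mean covered percent, covered percent of the stretch, pooled log2 enrichment, start minus end), 0 had a library apart. Values tied at 0 or 100 make such gaps common, since any single departure then counts.

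LmnB1_6 replicate 2 stood apart in 6 cases: ZNF345 (90.7%), ZNF568 (93.9%), ZNF585A (97.4%), ZNF540 (47.2%), ZNF571 (54.8%) and ZNF546 (41.9%). It was below the other LmnB1 libraries in all 6. LmnB1_6 replicate 1 stood below the others for ZNF792 (46.3%), ZNF260 (75.7%) and ZNF382 (69.8%). LmnB1_16 replicate 1 stood above the others for ZNF565 (24.9%) and ZNF146 (36.5%), which were at 0 in the other 3.

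mCherry_4 replicate 2 stood below the other mCherry libraries in 4 cases: ZNF529 (0%), ZNF790 (0%), ZNF569 (90.9%) and ZNF570 (79.7%). mCherry_4 replicate 1 stood above the others for ZNF565 (23.4%) and ZNF146 (32.3%), and below them for ZNF461 (60.8%), ZNF585A (86.4%), ZNF793 (83.7%) and ZNF540 (93.6%). No library of mCherry_3 stood apart.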

How the results depend on the processing

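Under every setting run 0 of the zinc finger genes passed limma's adjusted threshold, with 0 to 3 at an unadjusted p under 0.05. The replicate numbers do not pair the libraries (correlations of deviations between lines from −0.02 to 0.10); with a replicate block 0 of the genes and 7 genes in all passed. Genes passing in all (7) were 73 without the 2 shortest lists and 8 to 60 with 1 library left out. Genes with constructs that do not overlap (0) were 1 with domains under 10 kb apart joined (2.94%, against 2.58% of all genes tested), 1 with bodies extended by 5 kb (2.94% against 2.66%; ZNF792 both times), 3 without the 2 shortest lists (8.82% against 9.80%) and 0 to 4 with 1 library left out (0 to 11.8%, against 2.66% to 9.54%), all with LmnB1 above. Genes covered over at least 50% in all libraries (12) were 11 with the lists at equal covered length, 6 with the highest-scoring 50% of each list and 20 without the 2 shortest lists. Genes at 0 throughout (1) were 4 with the lists at equal covered length and 4 with the highest-scoring 50%, where the margin in log2 enrichment (0.137) was 0.0552; fewer domains are kept in both.

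Subtracting each library's mean moved the median difference of all genes from 3.73 to −2.97 points, and with it turned the sign of ZNF585A (−3.94), ZNF569 (−4.44), ZNF570 (−1.64), ZNF793 (−2.64) and ZNF546 (−4.62). With the highest-scoring 50% the sign turned for ZNF540 (11.8), ZNF571 (12.2), ZFP30 (5.47), ZNF607 (2.01) and ZNF573 (4.66, as at equal covered length); without the 2 shortest lists it turned for ZNF181 (−4.63) and ZFP30 (7.94). With 1 library left out ZNF585A ranged from −0.64 to 4.90, ZFP30 from −24.2 to 12.8 and ZNF546 from −2.19 to 7.30. The cause was not tested. The end stayed above the start in every setting run.

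Covered percent cannot exceed 100, so genes filled in every library cannot show an increase. Neighbouring genes share domains. List length and depth differ between libraries, and depth differs between constructs.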
